A study of Enchytraeus crypticus with 9 samples.

Results

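The 118 probes described here were those whose signal was higher by at least 1.5 log2 units, or 2.83-fold, in worms exposed to ultraviolet (UV) radiation than in unexposed worms at both doses tested. They were 118 of the 43750 gene probes of a custom microarray for *Enchytraeus crypticus*, a small soil-dwelling oligochaete used in ecotoxicity tests, and 118 of the 27935 probes with signal significantly above background on all 9 arrays. The level of a probe is its log2 processed signal minus the median of that value over the 27935 probes of the array, so that 0 is the typical probe and each unit is a doubling. A member had all 6 UV arrays above all 3 Control arrays, a mean difference from Control of at least 1.5 at each dose, and signal well above background on every UV array. The membership used the UV and Control values themselves, so those differences are given as a description without a test.

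The study hybridized RNA from whole-body pools of 40 adult worms kept for 5 days in reconstituted water, with 3 pools in each of 3 groups. The Control group was kept under laboratory light, the UV Dose 1 group received a total of 7500 J/m2 and the UV Dose 2 group a total of 8100 J/m2, a difference of 8%. The UV came from a lamp switched on daily for a short time, with a filter that removed the shortest wavelengths. All groups shared the species, the medium and the exposure time, and none carried a genetic change. In RNA from whole worms, more RNA per cell and more cells of a kind cannot be told apart. The files identify each probe only by a contig number or by the ID of a sequencing read, and pair no ID with a gene, so that no function can be given for any of the 118.

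UV radiation is absorbed by nucleic acids and proteins, where it forms bonds between neighbouring pyrimidines in DNA and, through excited molecules, reactive oxygen species. Cells answer such damage with DNA repair, antioxidant enzymes and chaperones that refold proteins, many of them regulated at the transcript level. Soil worms such as enchytraeids are translucent, have no hard covering and normally live away from sunlight. None of the 118 probes could be placed in these pathways from the files.

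Over the 27935 probes, arrays of the same group correlated at 0.946 to 0.988 and arrays of different groups at 0.944 to 0.986. Significant signal was found for 29844 to 39849 gene probes per array, with both extremes in Control. No gene probe was saturated. The 9 arrays lay on 4 slides, and of these slide 2 held Control replicate 2 with UV Dose 1 replicates 2 and 3, while slide 4 held UV Dose 1 replicate 1 with all UV Dose 2 arrays. No UV Dose 2 array shared a slide with a Control array, so that this dose was set against Control only across slides. The UV Dose 1 arrays link slides 2 and 4 indirectly, but the differences from Control were not adjusted for slide.

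All 6 UV arrays lay above all 3 Control arrays for 9.01% of the 27935 probes, and both mean differences reached 1.5 for 0.469%, or 131 probes. In 13 of these 131 the groups overlapped, and the other 118 were the members. The requirement of signal well above background on the UV arrays removed none of them. The median level of the members was -0.48, -0.77 and -0.38 on the 3 Control arrays, in the order of the replicates. It was 1.23, 1.44 and 1.22 on the UV Dose 1 arrays, and 1.505, 1.65 and 1.599 on the UV Dose 2 arrays. Thus the middle member was a little dimmer than the typical probe in unexposed worms and clearly brighter than it in exposed worms, on every array.

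**Figure D1:**
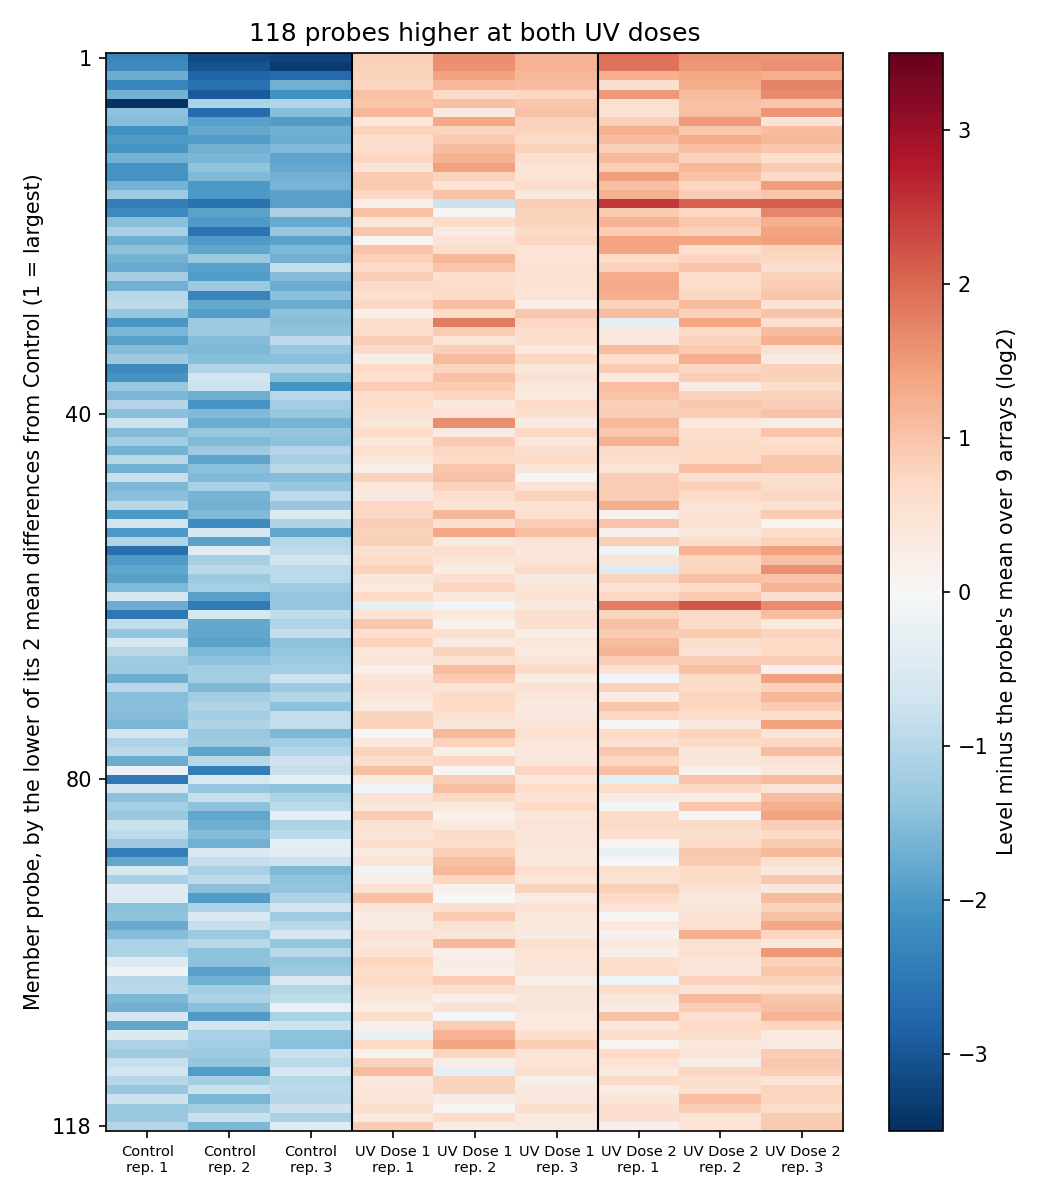
Level of each of the 118 members (rows, ordered by the lower of the 2 mean differences from Control) on each of the 9 arrays (columns), after subtracting the probe's own mean over the arrays, in log2 units. Every row is lower on the 3 Control arrays than on the 6 UV arrays, as the choice of members required, and few rows change colour between UV Dose 1 and UV Dose 2.

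The members differed from Control by a median of 1.82 at UV Dose 1, or 3.54-fold, with a range of 1.504 to 4.11. At UV Dose 2 the median was 2.05, or 4.15-fold, with a range of 1.53 to 4.56. The medians over all 27935 probes were 0.09 and 0.14. Most members lay near the lower limit. The lower of the 2 differences was under 2 for 80 members and at least 2 for the other 38, of which it reached 3 in 5 and 4 in 2. The distance from the highest Control array to the lowest UV array had a median of 1.18, was at least 1 in 81 members, and ranged from 0.03 to 3.11.

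The largest differences belonged to a pair of probes designed to the sequencing reads GYUW2K402HSXGV and GYUW2K402HFWBH. The level of GYUW2K402HSXGV was 5.29, 4.42 and 4.32 on the Control arrays, 8.40, 9.18 and 8.76 at UV Dose 1 and 9.46, 9.14 and 9.11 at UV Dose 2. The levels of GYUW2K402HFWBH were 5.40, 4.59 and 4.29, then 8.45, 9.22 and 8.85, then 9.52, 9.16 and 9.22. In both probes the Control arrays stayed more than 3 units under the lowest UV array, and Control replicate 1 was the highest of its group. The mean differences of GYUW2K402HSXGV were 4.11 at UV Dose 1 and 4.56 at UV Dose 2, which are 17.2-fold and 23.6-fold, with SDs over the 3 arrays of 0.54 in Control, 0.39 at UV Dose 1 and 0.20 at UV Dose 2. Its mean processed signal went from 1439 in Control to 23236 and 29115, far from the background at every point, so that this pair combined a bright spot with a large difference.

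The next member, contig09612, was bright as well. It measured 7.05, 6.0 and 6.09 in Control, 9.59, 10.21 and 9.96 at UV Dose 1 and 10.03, 10.16 and 10.08 at UV Dose 2. It differed from Control by 3.54 and 3.71, or 11.6-fold and 13.1-fold, and as in the first pair Control replicate 1 was the highest unexposed array.

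By measured level, 4 dim members with Control signal close to the background came next. contig01426 measured -3.48, -3.79 and -2.86 in Control, -0.43, -0.04 and -0.12 at UV Dose 1 and -0.62, 0.11 and 0.54 at UV Dose 2, differences of 3.18 and 3.38. GYUW2K401DSH4W measured -2.66, -3.94 and -3.12, then 0.02, -0.35 and -0.27, then 0.51, 0.10 and 0.65, differences of 3.04 and 3.66. For both, as for contig12474 and GYUW2K401AM53B, only 1 of the 3 Control arrays was well above background. The Control arrays of contig12474 spread the most, at -4.39, -2.05 and -1.98, with an SD of 1.37 against 0.04 at UV Dose 1, and without Control replicate 1 its differences of 2.85 and 2.71 became 2.06 and 1.92.

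The places of these 4 rest on levels under the background floor. With Control levels raised to that floor, which is the dimmest gene probe well above background on the array, the differences were 2.39 and 2.59 for contig01426 and 2.47 and 3.09 for GYUW2K401DSH4W, and the lower difference reached 3 in 3 members in place of 5. The 4 members then stood behind the other 5 of the 12 leading members.

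The remaining 5 of the 12 leading members were measured well above background on all arrays. contig16184 had differences of 2.65 and 2.72, contig24468 of 2.64 and 2.95, contig09936 of 2.62 and 3.07, GYUW2K402J11F3 of 2.61 and 2.71, and contig19077 of 2.55 and 2.54. contig24468 was the tightest of these at UV Dose 1, at 5.56 on each of the 3 arrays against 2.66, 3.0 and 3.1 in Control. In all 5 the spread within a group was small beside the distance between exposed and unexposed worms.

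**Figure D2:**
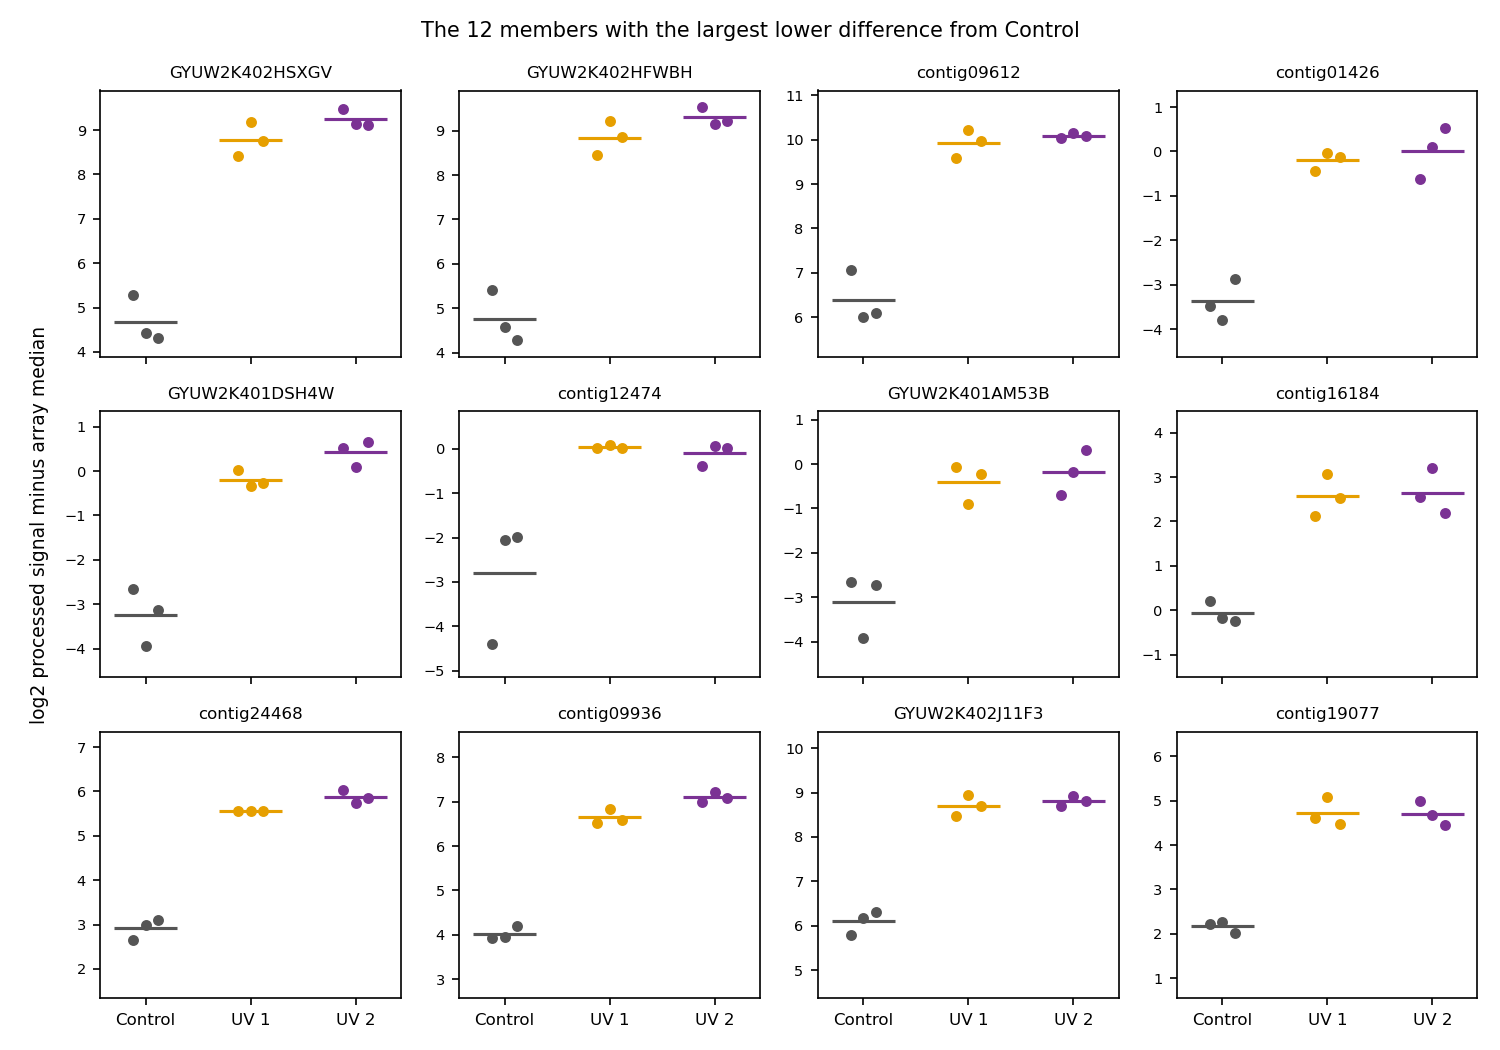
Level (log2 processed signal minus the array median) of the 12 members with the largest lower difference from Control, a panel each, with a point for each array, a bar for each group mean, and every vertical axis spanning 6 log2 units. In the first 3 panels the Control points lie more than 2.5 units under the lowest UV point, and in contig12474 a single Control array lies far under the other two.

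The mean processed signal over the Control arrays had a median of 40.2 over the members, against 57.8 over all 27935 probes, and ranged from 3.5 to 27211. It was under 100 for 80 members and at least 100 for 38. Signal well above background was found on all 3 Control arrays for 73 members, or 61.9%, against 72.1% of all probes. It was found on 2 Control arrays for 21 members, on 1 for 21 and on none for 3. By array, 93, 74 and 115 of the 118 were well above background on Control replicates 1, 2 and 3, the fewest on Control replicate 2, which also had the fewest gene probes with significant signal.

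For the 3 members with no Control array well above background the fold change is given over the background floor. The UV mean was compared with the mean over the Control arrays after levels under the floor of an array had been raised to it. Probes not well above background can also lie above that floor, so these values are not strict lower limits. contig17374 was then 2.33-fold higher at UV Dose 1 and 3.35-fold higher at UV Dose 2. The values were 3.48-fold and 2.17-fold for contig02459, and 1.95-fold and 1.88-fold for contig16564. Raising the Control levels in this way for all probes, an alternative added after the data were seen, left 98 of the 118 meeting the rule, with median differences of 1.76 and 1.99. The other 20 were among the 45 members with fewer than 3 Control arrays well above background. This follows from the floor, since a level well above background cannot lie under it. The measured values of contig17374 were -3.74, -4.22 and -4.02 in Control against -1.82 to -0.98 on the UV arrays.

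At the other end, the brightest members in Control were contig08979, GYUW2K402HHULH and GYUW2K401EBDZS. contig08979 measured 9.04, 8.79 and 8.95 in Control, 10.43, 10.56 and 10.44 at UV Dose 1 and 10.66, 10.43 and 10.60 at UV Dose 2, with differences of 1.55 and 1.64. GYUW2K402HHULH measured 8.27, 8.09 and 8.13, then 9.71, 10.16 and 9.78, then 9.88, 10.04 and 10.08. In these 2 probes the arrays within a group lay within 0.5 units. The third, GYUW2K401EBDZS, spread widely in Control, at 5.89, 7.76 and 7.92 with an SD of 1.13.

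The background correction changed how many probes met the rule. With a normexp correction of the raw median signal, with an offset of 50 added before the log, 28 of the 118 met the rule and no other probe did, and the median differences of the 118 became 0.93 and 1.09. By its construction the offset shrinks the differences of dim spots. Among the 80 members with Control signal under 100 the median difference at UV Dose 1 went from 1.82 to 0.60 and 4 met the rule, and among the 38 brighter members it went from 1.88 to 1.68 and 24 met it. All 6 UV arrays still lay above all 3 Control arrays in 114 of the 118.

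The difference between the doses was not used by the rule, although the requirement at both doses limits how far they could part. It was tested with limma over all 27935 probes with Benjamini-Hochberg adjustment. No member passed an adjusted p of 0.05, and neither did any other probe, which is 0% of those tested, with a smallest adjusted p of 0.37 over the members. The unadjusted p was under 0.05 for 8 members, or 6.78%, against 3.31% of all probes. Of these, 7 were higher at UV Dose 2, or 5.93% of the members, against 1.97% of all probes. The other 1 was higher at UV Dose 1, or 0.847% of the members, against 1.34% of all probes. The 95% intervals of the difference had a median half-width of 0.67 over the members, and lay wholly within 1 unit of 0 for 80 of them. For the other 38 the interval reached beyond 1 unit. The limma fit took its residual spread from the Control arrays as well as from the UV arrays. The members' median SD was 0.445 in Control, against 0.249 at UV Dose 1 and 0.27 at UV Dose 2. The interval widths therefore include Control spread, by an amount that was not tested. Fitted to the 6 UV arrays only, limma also called no member.

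The means of UV Dose 2 were slightly higher for most members. The median difference between the doses was 0.20, or 1.15-fold, against 0.07 over all probes, and 98 of 118 members, or 83.1%, had the higher mean at UV Dose 2, against 60.8% of all probes. All 3 UV Dose 2 arrays lay above all 3 UV Dose 1 arrays in 19 members, or 16.1%, against 8.65% of all probes, and below them in 2, or 1.69%, against 3.09%. The lean depended on the scaling, for the members and for all probes alike. With the spike-in transcripts as the reference, 67 members, or 56.8%, were higher at UV Dose 2, against 35.7% of all probes. The median of the members was then 0.05 and the median of all probes -0.08. Scalings that move a whole array by a constant cannot change the distance between the 2 medians, which was 0.13. It was 0.13 with quantile normalization and 0.05 with normexp. Within slide 4, where UV Dose 2 was set against UV Dose 1 replicate 1 alone, the median over members was again 0.20, against 0.08 over all probes.

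**Figure D3:**
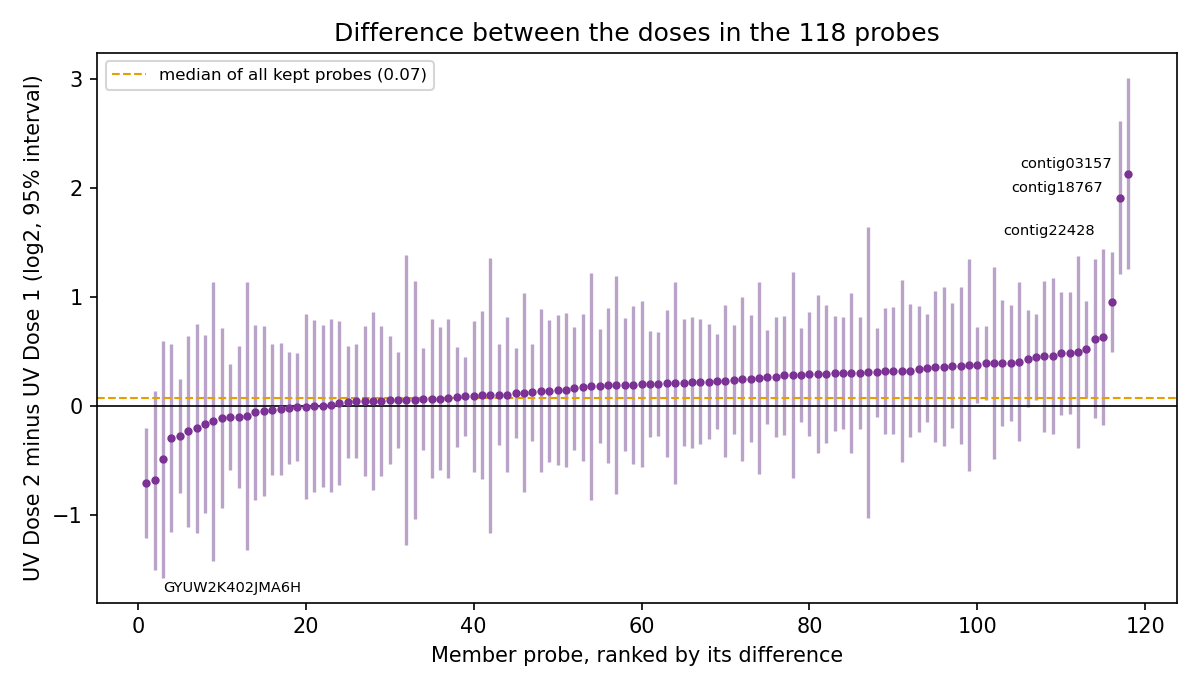
Difference of UV Dose 2 minus UV Dose 1 (log2) for each of the 118 members in increasing order, with the 95% interval of the limma fit and the median of all 27935 probes as a dashed line. The members run from -0.71 to 2.13, the intervals of 110 hold 0, and contig03157, contig18767 and contig22428 stand at the upper end.

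Between the doses 3 members stood apart in size, though none passed the adjusted test. contig03157 measured -3.56, -3.75 and -3.04 in Control, -0.97, -1.90 and -0.28 at UV Dose 1 and 1.34, 0.94 and 0.98 at UV Dose 2. Its measured levels formed 3 steps without overlap, but only 1 Control array was well above background. With the Control levels raised to the background floor described above it was 3.01-fold over Control at the lower dose and 13.2-fold at the higher. The difference between the doses was 2.13 with a standard error of 0.39 and a 95% interval of 1.26 to 3.01, and its limma adjusted p was 0.47.

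contig18767 had the same shape. It measured -2.25, -2.98 and -1.86 in Control, -0.83, -0.61 and -0.21 at UV Dose 1 and 1.28, 1.67 and 1.15 at UV Dose 2. The difference between the doses was 1.91 with a standard error of 0.31, an interval of 1.21 to 2.62 and a limma adjusted p of 0.37, the lowest among the members. For contig18767, with 2 Control arrays well above background, the same floor gave 2.94-fold and 11.1-fold over Control. Both probes were dim in Control, with a mean processed signal of 5.3 and 11.5, and reached 102.2 and 126.6 at UV Dose 2.

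contig22428 was brighter and tighter, at 0.88, 0.60 and 0.71 in Control, 2.69, 3.09 and 3.36 at UV Dose 1 and 4.0, 3.99 and 4.02 at UV Dose 2. Its difference between the doses was 0.95 with a standard error of 0.20 and a limma adjusted p of 0.76. Within slide 4 the differences were 2.06 for contig03157, 2.19 for contig18767 and 1.31 for contig22428, as large as or larger than over all arrays for the last pair. Over the alternative settings the adjusted p ranged from 0.22 to 1 for contig03157, from 0.059 to 1 for contig18767 and from 0.34 to 1 for contig22428, the lowest with normexp for the first pair and with the trended and robust prior for contig22428.

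The opposite lean was smaller. GYUW2K402JMA6H measured -3.14, -3.26 and -3.51 in Control, -1.35, -0.66 and -1.18 at UV Dose 1 and -1.94, -1.65 and -1.73 at UV Dose 2, so that the lower dose gave the higher signal on every array. Its difference of -0.71 had an interval of -1.21 to -0.20 and a limma adjusted p of 1. The differences of contig02459, at -0.68, and contig25327, at -0.49, had intervals that held 0. Of the 118 members, 110 differed by at most 0.5 between the doses, or 93.2%, against 89.0% of all probes.

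Within groups the members spread more in Control than under UV. The median SD over 3 arrays was 0.45 in Control, 0.25 at UV Dose 1 and 0.27 at UV Dose 2, against 0.37, 0.28 and 0.25 over all probes. The relative error of the processed signal given by the scanner software had a median of 11.5% in Control and 10.1% at either dose, against 10.6% and 10.4% over all probes. These SDs come from values that the rule had used, and a single low Control array can help a probe reach the limit. The parts of this choice and of dim signal in the larger Control spread were not tested.

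Some members followed each other closely across the 9 arrays. Probes were grouped where the difference of their levels had an SD of at most 0.2 over the arrays, each probe being joined to any group in which it had such a neighbour. Of the 118, 58 fell into 9 groups, of 39, 4, 3 and 6 times 2 probes. The levels compared include the rise from Control to UV that the rule required of every member, so part of the likeness came with the choice. No share over all probes is given beside this count. No target ID occurred more than once, and whether the probes of a group measure the same transcript was not tested, since the files pair the IDs with no sequence.

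The pair GYUW2K402HSXGV and GYUW2K402HFWBH had an SD of 0.06 between them, and so had GYUW2K402I008W and GYUW2K401EBDZS. The latter showed an uneven Control group. GYUW2K402I008W measured 5.70, 7.64 and 7.86 in Control, 8.54, 9.09 and 8.59 at UV Dose 1 and 7.88, 9.21 and 9.30 at UV Dose 2. Control replicate 1 was about 2 units under the other Control arrays, and UV Dose 2 replicate 1 lay only 0.03 above Control replicate 3, the narrowest gap of all members. The same arrays deviated in the same way in its partner, GYUW2K401EBDZS. Without Control replicate 1 the mean differences of 1.68 and 1.73 of GYUW2K402I008W became 0.99 and 1.05, under the limit, and those of its partner became 0.97 and 1.08.

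A group of 4 read-derived probes, GYUW2K402HYFDY, GYUW2K402GWQPI, GYUW2K402G95PB and GYUW2K402I4UT5, shared another shape. Their median level was 5.88, 5.24 and 5.00 in Control, 6.37, 7.58 and 7.09 at UV Dose 1 and 7.07, 7.18 and 6.89 at UV Dose 2. UV Dose 1 replicate 1 was the lowest UV array and replicate 2 the highest in this group, and the 4 probes repeated that order. Their differences ran from 1.54 to 1.73 at UV Dose 1 and from 1.53 to 1.83 at UV Dose 2.

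The group of 39 was a chain rather than a set of like probes, since each member needed a single close neighbour. It spanned mean Control levels from -2.80 to 8.93 and held contig08979 and GYUW2K402HHULH together with dim probes. Its median level was -0.20, -0.70 and -0.25 in Control, 1.57, 1.65 and 1.40 at UV Dose 1 and 1.95, 1.67 and 1.76 at UV Dose 2, with differences of 1.51 to 2.30 and 1.56 to 2.57. With a limit of 0.1 in place of 0.2 only 8 members in 4 groups remained joined, and with 0.3 the chain took in most members, 102 probes in 4 groups.

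**Figure D4:**
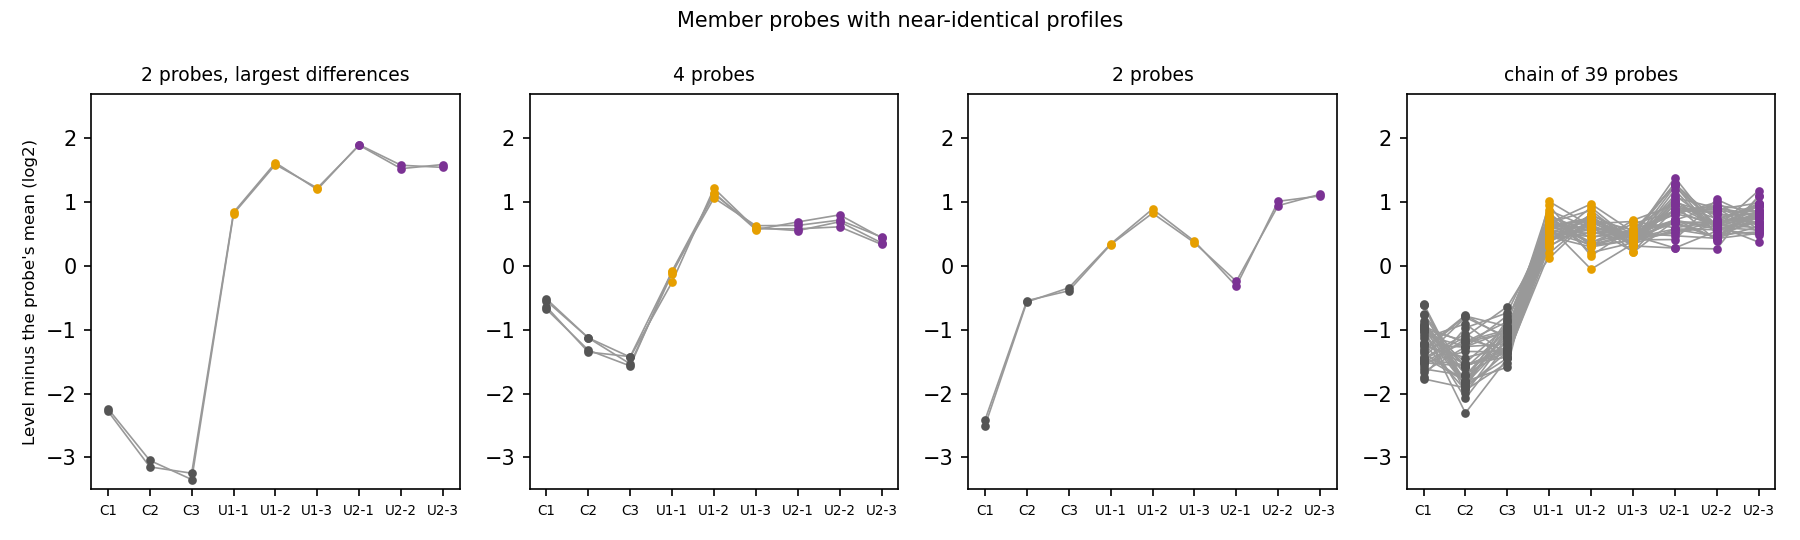
Level minus the probe's own mean (log2) on the 9 arrays (C, Control, U1, UV Dose 1, U2, UV Dose 2, each with its replicate number) for 4 of the groups of near-identical profiles: GYUW2K402HSXGV with its partner, the group of 4 read-derived probes, GYUW2K402I008W with its partner, and the chain of 39. Each line is a probe, and the first 3 panels show lines that nearly coincide, including the low Control replicate 1 of the third.

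The members were also set beside all probes in features that the rule did not use. Probes designed to assembled contigs made up 73 of the 118, or 61.9%, against 50.5% of all probes, and the other 45 were designed to single reads. By position, the 4 equal bands of columns on the array held 35.6%, 20.3%, 18.6% and 25.4% of the members, against 25.7%, 25.6%, 24.8% and 23.8% of all probes. The 4 equal bands of rows held 28.0%, 16.1%, 28.0% and 28.0%, against 24.8%, 26.3%, 26.2% and 22.8%. A single member, GYUW2K401AKA8F, carried an outlier flag on any array.

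The values at the limit show how gradual it is. The members just inside were contig08839, with differences of 1.504 and 1.53, GYUW2K401DYFJA, with 1.505 and 1.71, and contig09580, with 1.51 and 1.80. Just outside lay GYUW2K401CUANZ, with 1.498 and 2.25, GYUW2K402IK49N, with 1.55 and 1.495, and GYUW2K401A0CIS, with 1.49 and 1.67. Of the members, 26 had a lower difference under 1.6.

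To read the same measure on arrays that had not been used for the choice, the rule was applied to the 6 arrays outside slide 2 and the result was read on slide 2. It took 121 probes, 89 of them members. On slide 2 both UV Dose 1 arrays lay above the Control array in 113 of the 121, or 93.4%, against 50.5% of all probes. The median difference was 1.79, against 0.17, and 78 reached 1.5, whereas 3.76% of all probes did. The lowest of the 121 was at -1.32. With limits of 1.0 and 2.0 in the choice the shares were 92.2% of 446 and 95.1% of 41 probes. This check concerned UV Dose 1 and a single Control array, and the filter on detected probes still used all 9 arrays. For the 118 members themselves, which had used slide 2, the median within that slide was 2.10, and the lowest value 0.92, for contig21228.

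**Figure D5:**
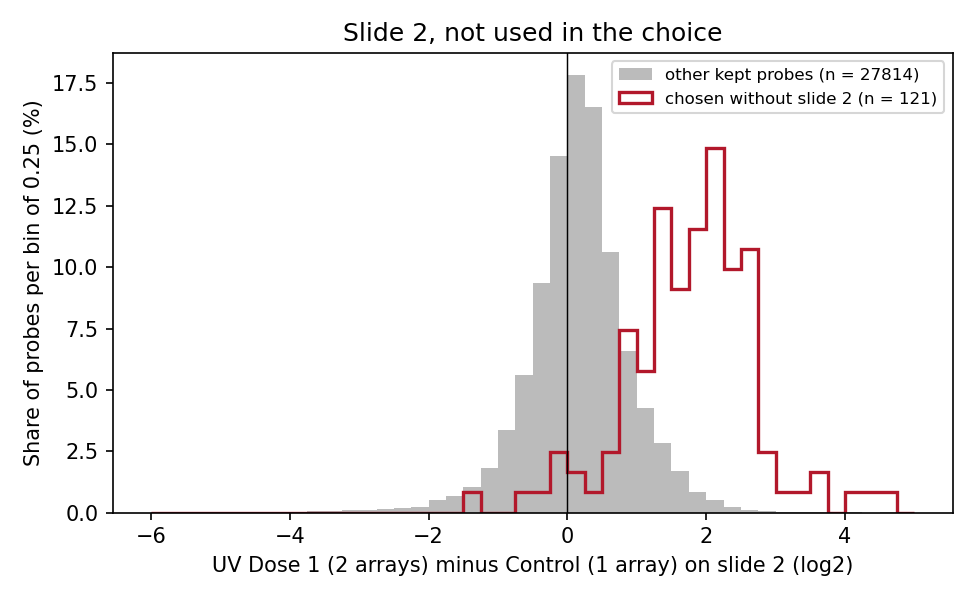
Distribution of UV Dose 1 (2 arrays) minus Control (1 array) within slide 2, in log2 units on the horizontal axis and as the share of probes per bin in percent on the vertical axis. The 121 probes chosen on the other 6 arrays (line) centre on 1.79, and the remaining probes (filled) centre near 0.

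Applied 9 times, each time without 1 array, the rule took 107 to 190 probes. When a UV array had been left out, 96.0% to 100% of the chosen probes lay above all Control arrays on it, against 27.2% to 35.9% of all probes. When a Control array had been left out, the chosen probes were counted where it lay under all UV arrays. These were 81.5% on Control replicate 1, 90.2% on replicate 2 and 86.3% on replicate 3. The shares over all probes were 27.2%, 39% and 21.6%. The median difference of the UV mean from these left-out arrays was 1.47, 1.86 and 1.46. In every case only the left-out array was new. The arrays it was set against had served in the choice, so these shares and medians carry part of that choice. The size of that part was not tested. A left-out UV array had to exceed the highest Control array, and a left-out Control array had to lie under the lowest UV array. In the latter case the choice also rested on fewer Control arrays. The shares of UV and Control arrays are therefore unlike measures and cannot be set against each other. Without Control replicate 3 the rule took 190 probes, 108 of them members, and without Control replicate 1 it took 168, 100 of them members. Without Control replicate 2 it took 123, 93 of them members, so that 25 of the 118 reached the limit at both doses only with that array.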

How the data were processed

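Total RNA of 9 whole-body pools was amplified, labelled with a single dye and hybridized by the authors, who used Agilent Feature Extraction 10.7.3.1 to quantify them. Deposited intensities are linear, 1 scanner file per array, with the background already subtracted from the processed intensity and no normalization between arrays. The table of the whole series deposited by the authors holds the same intensities, differing by at most 0.497%. Groups came from titles and treatment labels. On UV Dose 2 arrays a further label mentions dose 1 next to 8100 J/m2, and was not followed.

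Control spots were left out, and 27935 of 43750 gene probes with the flag for positive and significant signal on all 9 arrays were kept. Log2 processed intensities were centred on each array's median. The study ran this scaling as a conventional one and argued that it removes variation between conditions, unlike the normalizations it proposes. No pseudocount was needed. The 3 arrays per group limit the precision. Doses were compared with limma 3.58.1 in R 4.3.3 (lmFit and eBayes, 9 arrays, group means only, two-sided). The scripts were tested on simulated data with known dose differences. Of 100 probes given a change of 1 log2 unit the dose test called 12%, and of 100 given 2 units it called 62%. It also called 6 unchanged probes. SVCD, the study's own normalization, was rewritten from its methods as an alternative, beside quantile, 75th percentile and spike-in scaling, no normalization, normexp, the deposited table, other filters, slide and replicate blocks, another prior, the methods' t-test and leaving out each array. Raising Control levels to the background floor was added after the data were seen.

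Probes named were the 12 with the largest lower difference from Control, the 3 with the largest and the 3 with the smallest difference between doses, the 3 brightest and 3 dimmest in Control, 3 on either side of the limit of 1.5, and groups of near-identical profiles. contig21228 and GYUW2K401AKA8F were named after their values were seen. The members and these rules were chosen with earlier results of these data known. The files pair no probe with a gene or a sequence, so the planned gene lists were not used.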

Additional observations from a re-analysis of the deposited data

How the results depend on the processing

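The number of probes meeting the rule was 118, and 28 with normexp, 425 with a limit of 1.0 and 38 with a limit of 2.0. It was 83 with SVCD and 85 where signal well above background was required on all arrays. Leaving out 1 array gave 107 to 190. The median difference of the members from Control at UV Dose 1, 1.82, became 0.93 with normexp, 1.61 with no filter on dim probes and 2.10 within slide 2, and 1.82 to 1.99 without 1 array. At UV Dose 2, 2.05 became 1.09 with normexp and 1.84 with no normalization, and 2.00 to 2.15 without 1 array. The offset of normexp shrinks dim spots by construction, and the cause of the other shifts was not tested. The median difference between the doses, 0.20, became 0.045 with spike-in scaling and 0.13 to 0.24 without 1 array. No member was called between the doses by limma or by the methods' t-test under any setting run. Over all probes limma called none, but 6 with normexp, 2 with the slide as a fixed block, 6 with the trended and robust prior and 0 to 1 without 1 array, the 1 being without UV Dose 1 replicate 2. The signs of the 6 named differences between doses held in all settings in which the probe was tested. The 9 groups of near-identical profiles became 4 with a limit of 0.1 and 4 with 0.3. The 113 probes read as higher on slide 2 became 411 and 39 with limits of 1.0 and 2.0. Raising Control levels to the background floor, added after the data were seen, gave 98 probes. Replicate numbers were shared by the groups. Between the doses, the comparison that was tested, arrays with the same number had correlations of deviations of 0.09, 0.18 and 0.03, not all over 0.1, so the numbers were not taken to pair them. The 6 pairs of a Control with a UV array of the same number ran from 0.12 to 0.55, and 7 of 9 arrays correlated best with their own number. This is a hint of pairing from the data for comparisons that were not tested. Control replicate 2 and UV Dose 1 replicate 2, at 0.49, also shared slide 2. Pairs with unlike numbers reached 0.34, for Control replicate 3 with UV Dose 1 replicate 1. With a replicate block 0 members and 0 probes were called and the median between the doses was again 0.20.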
